A study of Homo sapiens with 8 samples.

Results

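Antisense transcript genes were taken as all genes of the deposited gene table whose name ends in -AS and a number, which gave 299 of 13471 genes. By convention such a gene is named after the gene on the opposite DNA strand, its sense partner, and the partner was also a row for 270 of the 299 (268 different sense genes, because HIF1A and PAXIP1 each have 2 antisense genes in the table). The remaining 29 had no sense gene in the table. The cells were hTERT-RPE1, a telomerase-immortalised human line from retinal pigment epithelium, in 4 groups of 2 libraries. Interphase cells were held in 2 mM thymidine, a block to DNA replication, for 24 h. Mitotic cells had the same 2 mM thymidine for 24 h, then 6 h without it and a night in STLC (S-trityl-L-cysteine), which inhibits the spindle motor Eg5 and stops cells in mitosis. In each phase, RNA was sequenced without immunoprecipitation (no IP) and after immunoprecipitation of hnRNP U (IP). All cells had thus passed through thymidine, all RNA came from a cleared detergent lysate, and every library was directional, with ribosomal RNA removed beforehand. Since no control-antibody IP was analysed here, binding to hnRNP U cannot be told apart from carry-over on the beads.

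hnRNP U, also called SAF-A, is an abundant nuclear protein that binds both RNA and DNA and has been tied to the attachment of RNA to chromatin in interphase. Antisense transcripts are mostly long non-coding RNAs that start either near the promoter of the sense gene and run away from it (head-to-head) or within or beyond it and run across it (overlapping). Many are spliced and polyadenylated, many are short-lived in the nucleus, and a few have been studied as regulators of their neighbour or of microRNAs. The comparisons below ask which of them were more or less abundant in the hnRNP U IP than in RNA without IP, whether that differed between mitosis and interphase, and whether they followed their sense partners.

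The 8 libraries gave FPKM values (fragments mapped to a gene, scaled by transcript length and by the number of mapped fragments). Fragment totals are unknown. Depth relative to the first interphase library without IP, read from the steps between low values, ran from 0.639 to 1.19, with both ends in the mitotic IP. The FPKM sum over all genes ranged from 1017308 to 1249972 where no IP was done and from 321539 to 459661 after the IP, so the IP libraries also differed in composition. The part of these differences in the results below was not tested beyond the scaling alternatives. Of 14 genes fixed as markers of retinal pigment epithelium, 7 were rows of the table, with means in interphase without IP of 0.114 (PMEL), 0.171 (LRAT), 1.08 (MERTK), 8.54 (OTX2), 9.59 (MITF), 43.9 (KRT8) and 74.4 FPKM (KRT18). The visual-cycle gene RPE65, RLBP1, BEST1, TYR, TYRP1, TTR and SERPINF1 had no row in the table used here. The mitotic genes CCNB1, PLK1, CDC20, AURKA and CENPF were all higher in mitosis without IP, by log2 fold changes of 1.18 to 2.51. Of 6 fibroblast or mesenchymal markers, 4 were rows, with VIM at 1809, FN1 at 275, THY1 at 139 and COL1A1 at 1.06 FPKM. Of 3 photoreceptor markers NRL alone was a row, at 0.262 FPKM, and none of the 3 leukocyte and 3 endothelial markers was. The part of these markers in the results below was not tested.

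Antisense genes were mostly low. Their median of mean FPKM over the 8 libraries was 0.875, against 7.64 for all genes and 10.8 for the sense partners. Means ran from 0.0358 to 701 FPKM, and 138 of 299 (46.2%) had a mean of at least 1 FPKM, against 83.7% of all genes. Only 14 had a mean of at least 10 FPKM. The sense gene had the higher mean in 232 of the 270 pairs, and the median ratio of sense to antisense mean FPKM was 9.98. The 5 highest were LRRC75A-AS1, FGD5-AS1, OIP5-AS1, PAX8-AS1 and SVIL-AS1. In GENCODE release 29, 294 of the 299 were found, 260 by symbol and 34 by an older symbol. The annotation classes 199 as antisense, 44 as lincRNA, 36 as processed transcript, 4 as protein-coding and the others as pseudogenes or bidirectional-promoter RNAs. Their longest transcripts had a median of 2279 nt (319 to 16182 nt), against 3611 nt for all genes, with a GC content of 47.3% against 47.6%. Across the 299 genes, log2 values of replicate libraries had a Pearson's r between 0.978 and 0.985, and their differences an SD between 0.22 and 0.25.

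Reads of a gene and of a partner on the other strand cannot be told apart without strand, and whether strand was used in quantification is not given in the sources used here. In the file, 189 of the 299 (63.2%) share their deposited interval with another gene, against 21.3% of all genes, and 145 of the 294 annotated ones have an interval over 1.5 times as long as the annotated gene. Values of these genes are uncertain for that reason. By the annotation, 131 pairs were head-to-head on opposite strands with starts within 1000 bases, 132 overlapped in another way, 3 lay apart and 4 could not be placed. The interval was the same for both partners in 169 pairs.

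In interphase, 79 of the 299 antisense genes were higher and 65 lower in the hnRNP U IP than without IP (limma, adjusted p below 0.05), 26.4% and 21.7%. Of all genes, 74.6% were called, 37.6% higher and 37% lower. OIP5-AS1, FGD5-AS1 and HNRNPU-AS1 were among the largest increases, and FOXC2-AS1 and AGAP2-AS1 the largest decreases. A log2 fold change of at least 1 in size was reached by 16 of the higher and 20 of the lower genes. The share of all genes reaching that size was not worked out. These counts therefore cannot be called particular to antisense genes. The median log2 fold change over the 299 genes was 0.05, against 0.02 over all genes. All fold changes given as log2 were taken after adding 1 to each FPKM value, so changes of genes near or below 1 FPKM are understated. Among the 138 members with a mean of at least 1 FPKM, tested on genes of that level, 50 were higher and 36 lower, against 41.6% and 39.9% of all such genes. The balance of directions moved with the scaling. The higher genes were 54.9% of calls with FPKM as deposited, 68.5% after quantile normalisation (98 higher, 45 lower) and 71.5% after centring each library on its median (113 higher, 45 lower). For all genes these shares of calls were 50.4%, 54.9% and 56.2%. Of the antisense genes, 32.8% were higher after quantile normalisation and 37.8% after centring, below the 41.3% and 42.9% of all genes. With trends with length and GC content of the transcript removed, 46.6% were higher, against 26.2%. Centring moved the median of all genes in this comparison by 0.12.

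OIP5-AS1 (chromosome 15, 41283990 to 41309737, GRCh38, + strand), also known as cyrano, a long RNA known for a site that pairs with the microRNA miR-7, had 26.6 and 24.6 FPKM in interphase without IP and 104 and 113 FPKM in the interphase IP. The mitotic values were 30.8 and 27.1 FPKM without IP and 56.3 and 45.8 FPKM in the IP. The libraries of the 2 groups did not overlap in either phase, and the interphase IP was the highest group. The mean rose 4.25-fold in interphase, from 25.6 ± 1.43 to 109 ± 6.25 FPKM (SD, n = 2), a log2 fold change of 2.05 (SE 0.13, adjusted p 1.37e-06). In mitosis the log2 fold change was 0.79 (SE 0.13, adjusted p 0.000534), which fell to 0.09 (adjusted p 0.573) once trends with length and GC content of the transcript had been taken out. FGD5-AS1 (chromosome 3, 14920347 to 14948424, - strand) had 78.4 and 80.6 FPKM in interphase without IP, and 208 and 251 FPKM in the interphase IP. The mitotic libraries held 64.6 and 69.8 FPKM without IP and 72.4 and 76.1 FPKM in the IP. It rose in the interphase IP, with a log2 fold change of 1.51 (SE 0.12, adjusted p 5.75e-06), and its mitotic value of 0.14 did not pass the test (adjusted p 0.336). Its deposited interval also holds MRPS25 and NR2C2.

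HNRNPU-AS1, named as the antisense gene of HNRNPU, which encodes the precipitated protein itself, had 1.00 and 0.798 FPKM without IP and 5.79 and 5.37 FPKM in the interphase IP. Mitotic cells gave 1.79 and 2.09 FPKM without IP and 6.57 and 6.18 FPKM in the IP. The IP was higher in each phase, with log2 fold changes of 1.79 (SE 0.12, adjusted p 2.09e-06) and 1.33 (SE 0.12, adjusted p 2.61e-05). HNRNPU itself had 31.7 and 32.4 FPKM without IP and 59.5 FPKM in both interphase IP libraries, a log2 fold change of 0.87. The antisense to sense ratio was therefore higher in the IP by 0.92 in interphase (adjusted p 0.00288) and 1.20 in mitosis (adjusted p 0.00149). The interval of HNRNPU-AS1 also holds COX20, and the gene was not matched to the annotation. The other increases named by rule in interphase were NNT-AS1 (log2 fold change 1.53), NIPBL-AS1 (1.49) and SUCLG2-AS1 (1.42). Their sense genes encode a mitochondrial transhydrogenase, the cohesin loader and a subunit of succinyl-CoA ligase. NIPBL-AS1 lost its call with length and GC trends removed, at 0.42 with an adjusted p of 0.0534.

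FOXC2-AS1 (chromosome 16, 86565145 to 86567761, - strand), next to the gene of the forkhead transcription factor FOXC2, fell in the interphase IP from 9.24 and 12.8 FPKM to 0.475 and 0.548 FPKM. Its mean fell 21.6-fold, with a log2 fold change of -2.98 (SE 0.17, adjusted p 9.44e-07). In mitosis it had 4.77 and 4.98 FPKM without IP and 1.61 and 1.08 FPKM in the IP, a log2 fold change of -1.33 (adjusted p 0.000144). The mitotic decrease shrank to -0.11 (adjusted p 0.624) without the length and GC trends. AGAP2-AS1 (chromosome 12, 57726271 to 57728356, + strand), which shares its deposited interval with no other gene, had 24.4 and 22.4 FPKM without IP and 3.06 and 2.81 FPKM in the interphase IP. In mitosis it had 15.0 and 13.8 FPKM without IP and 8.23 and 9.01 FPKM in the IP. Its log2 fold change was -2.63 in interphase (SE 0.11, adjusted p 3.1e-07) and -0.68 in mitosis (adjusted p 0.000571). TOPORS-AS1 (-2.06), SERTAD4-AS1 (-2.04), ZSCAN16-AS1 (-1.83) and NCBP2-AS2 (-1.71) were the next decreases in interphase. The annotation used here classes TOPORS-AS1 and NCBP2-AS2 as protein-coding. All 4 antisense-named genes of that class (with MMP24-AS1 and SPTY2D1-AS1) were lower in the interphase IP, a class chosen after its values were seen. NCBP2-AS2 is the short 918-nt transcript of 60.9% GC whose sign turned to 0.27 (adjusted p 0.0803) when length and GC trends were removed.

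**Figure D1:**
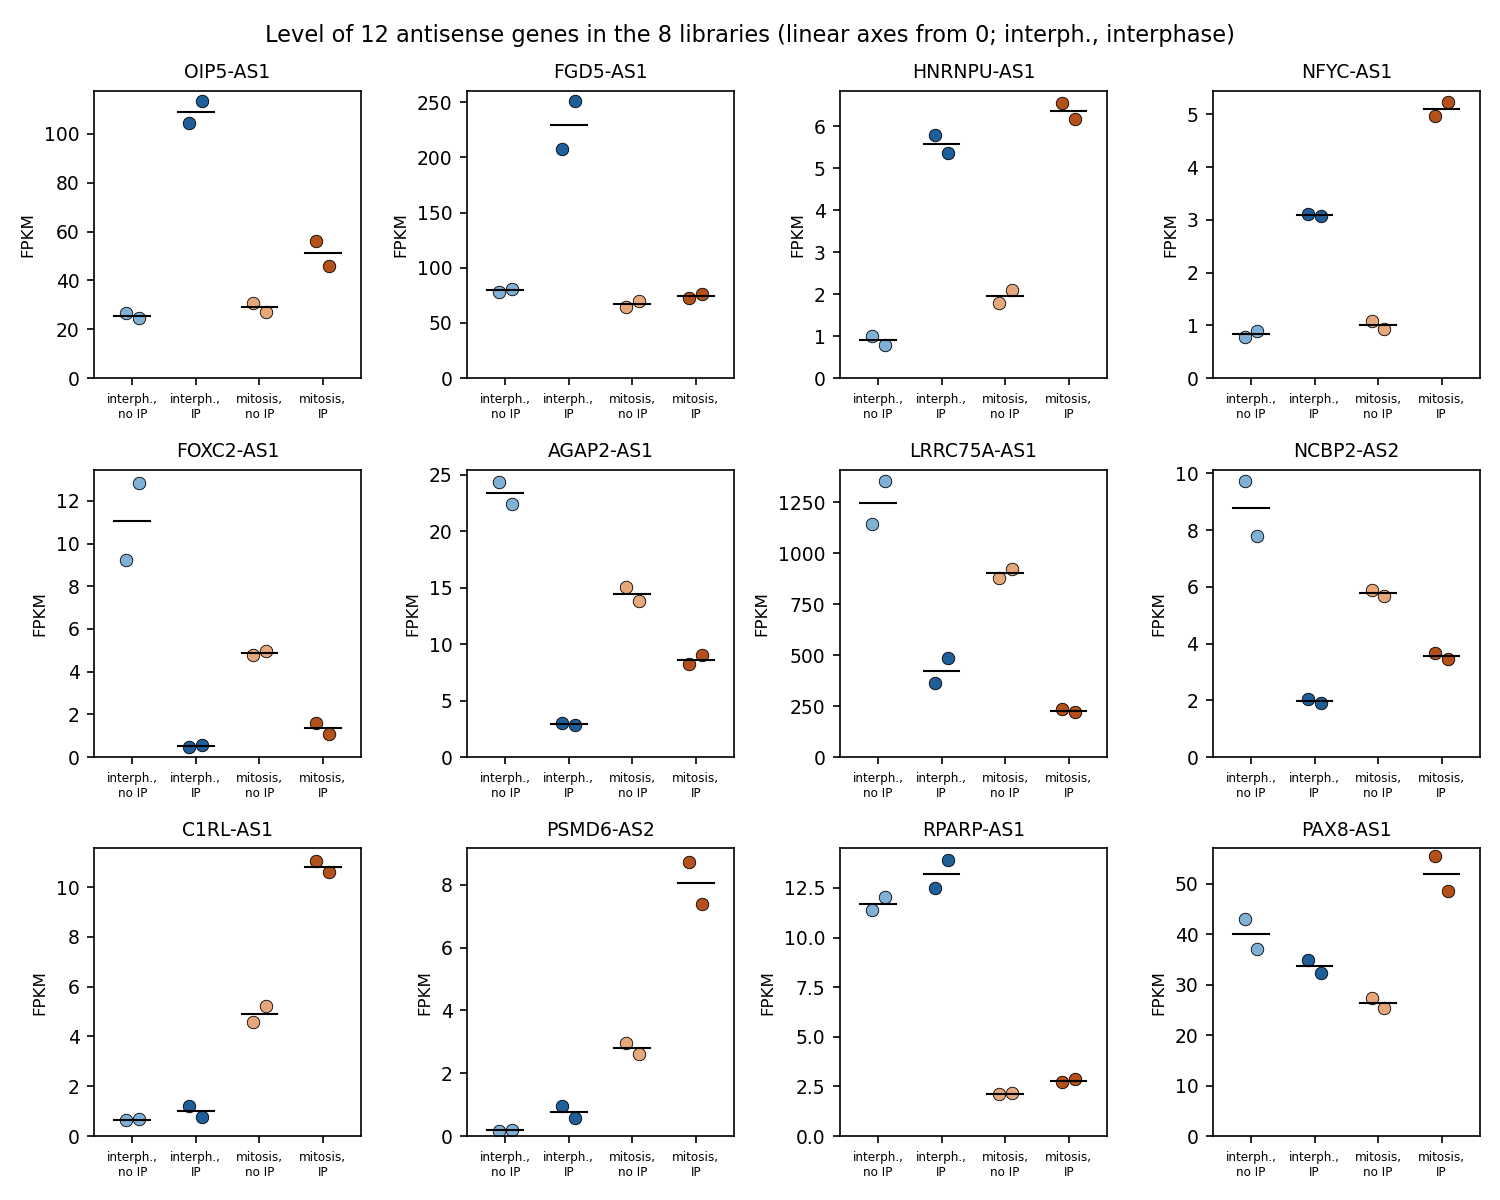
FPKM (linear y axes from 0) of 12 antisense genes in the 4 groups on the x axes; points are the 2 libraries of a group and lines their means. OIP5-AS1 and FGD5-AS1 are highest in the interphase IP (104 and 113, 208 and 251 FPKM), FOXC2-AS1 and AGAP2-AS1 are lowest there, and C1RL-AS1 and PSMD6-AS2 are highest in the mitotic IP.

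In mitosis, the antisense genes were more often higher than lower in the IP: 92 (30.8%) were higher and 23 (7.69%) lower, against 32.8% and 31.7% of all genes. The share of higher genes was thus near that of all genes, and the share of lower genes was below it. Few lower genes were also seen among 126 genes named LINC and a number (26.2% higher, 11.1% lower). Of 23 genes with names ending in -IT and a number, transcripts within introns, 20 were higher and 0 lower. The median log2 fold change of the antisense genes was 0.16, against 0.01 over all genes. Of the 138 with a mean of at least 1 FPKM, 59 were higher and 16 lower, against 37.2% and 36.3% of all genes of that level. Higher genes made up 80% of calls with FPKM as deposited, and 74.1% to 88.5% over quantile normalisation, median centring, the smaller pseudocount and removal of length and GC trends. For all genes the corresponding shares of calls were 50.9% and 51% to 57.1%. Leaving out the first mitotic library without IP reduced the lower calls to 15.

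NFYC-AS1 (chromosome 1, 40690380 to 40692066, - strand) was the largest increase in the mitotic IP. Its partner NFYC encodes a subunit of the CCAAT-binding factor NF-Y. It had 1.09 and 0.929 FPKM in mitosis without IP and 4.98 and 5.23 FPKM in the IP, a 5.06-fold difference of means with a log2 fold change of 1.60 (SE 0.11, adjusted p 8.48e-06). In interphase it went from 0.781 and 0.89 FPKM to 3.1 and 3.08 FPKM (log2 fold change 1.16). Its deposited interval is that of NFYC. RASSF8-AS1 (1.33), HNRNPU-AS1, SLC16A1-AS1 (1.31), PSMD6-AS2 (1.25) and MCM3AP-AS1 (1.14) followed, and each of these was higher in the interphase IP as well. SLC16A1 encodes a lactate transporter, PSMD6 a proteasome subunit and MCM3AP a factor of mRNA export.

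The largest decrease in the mitotic IP was that of LRRC75A-AS1 (chromosome 17, 16438822 to 16478678, + strand), the most abundant antisense-named gene, which hosts small nucleolar RNAs in its introns. It had 880.3 and 922 FPKM in mitosis without IP and 237 and 219 FPKM in the IP, a 3.95-fold lower mean with a log2 fold change of -1.98 (SE 0.23, adjusted p 8.19e-05). In interphase it had 1143 and 1354 FPKM without IP and 365 and 484 FPKM in the IP (log2 fold change -1.56, adjusted p 0.000209). The interphase change shrank to -0.19 (adjusted p 0.525) after quantile normalisation. Its deposited interval holds SNORD49A, SNORD65 and LRRC75A, so reads of these snoRNAs and of the gene itself cannot be told apart in this value. It alone made up most of the summed FPKM of the 299 genes without IP. With it, the sum was 1929 and 2147 FPKM in interphase without IP and 1415 and 1611 FPKM in the IP. Without it, the order of the groups turned, with 786 and 792 FPKM without IP and 1050 and 1127 FPKM in the IP. SERTAD4-AS1 (-1.67), TOPORS-AS1 (-1.56), FOXC2-AS1, PITPNA-AS1 (-1.28) and EPB41L4A-AS1 (-1.20) were the other large decreases. EPB41L4A-AS1 also holds a snoRNA gene, SNORA13. PITPNA-AS1 lost its call with length and GC trends removed (-0.64, adjusted p 0.0880).

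Of the 299 genes, 55 (18.4%) were called higher in the IP of each phase and 18 (6.02%) lower in each, against 24.8% and 23% of all genes. LOXL1-AS1 was the one gene higher in the interphase IP and lower in the mitotic IP (0.334%, against 3.73% of all genes). ALOX12-AS1, ATP6V0E2-AS1, MAPKAPK5-AS1 and PRR7-AS1 were lower in interphase and higher in mitosis (1.34%, against 2.47%). Another 43 were lower in the interphase IP without a call in mitosis, and 4 were lower only by call in the mitotic IP (EP300-AS1, FBXL19-AS1, NDUFA6-AS1 and NRSN2-AS1). Neither phase gave a call for 118 genes. Shares of all genes were not worked out for the patterns with a call in 1 phase or in none. Their counts therefore cannot be called particular to antisense genes. The difference between phases was tested directly. It was positive (a higher log2 fold change in mitosis) for 57 genes (19.1%) and negative for 13 (4.35%), against 27.2% and 19.9% of all genes. Of the 57 genes, 26 had been lower in the interphase IP with no call in mitosis, and 13 were higher in the mitotic IP with no call in interphase. For this split, too, no shares of all genes were worked out. This balance depended on the processing. After quantile normalisation the counts were 49 and 23, and with length and GC trends removed they were 39 and 52, with the median moving from 0.15 to -0.05.

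**Figure D2:**
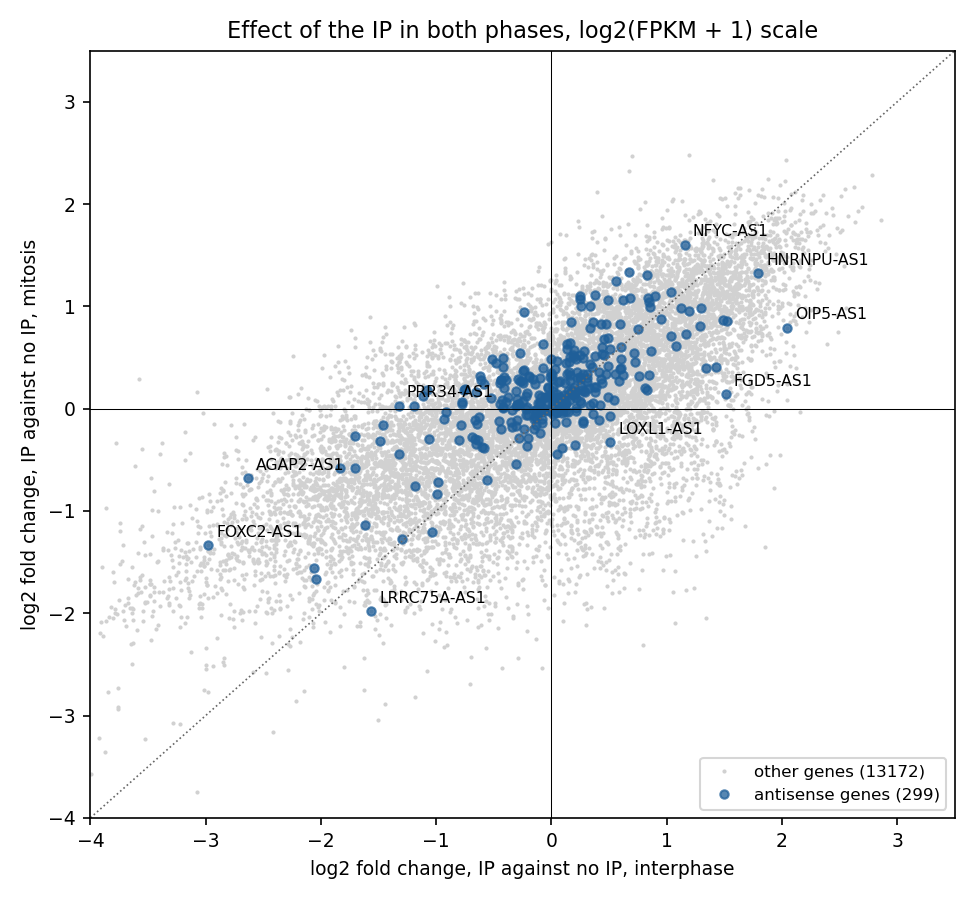
Log2 fold change of IP against no IP in interphase (x axis) and in mitosis (y axis), on the log2(FPKM + 1) scale, for 299 antisense genes (blue) over the other 13172 genes (grey), of which 21 lie outside the axes; the dotted line marks equal effects. Most blue points lie within 1 of 0 on both axes, FGD5-AS1 and OIP5-AS1 lie right of the line, and AGAP2-AS1 and FOXC2-AS1 lie above it.

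AGAP2-AS1 had the largest positive difference between phases, 1.95 (SE 0.15, adjusted p 6.6e-05), with a decrease in the IP of -2.63 in interphase and -0.68 in mitosis. FOXC2-AS1 (1.64) and PXN-AS1 (1.44), partner of the focal adhesion gene paxillin, followed, then PRR34-AS1 (1.35). PRR34-AS1 had 4.62 and 5.17 FPKM without IP and 1.55 and 1.16 FPKM in the interphase IP. In mitosis it had 3.58 and 4.13 FPKM without IP and 4.22 and 3.68 FPKM in the IP, and these 2 groups overlapped. PXN-AS1 was not called with length and GC trends removed (0.60, adjusted p 0.125). The largest negative differences were those of FGD5-AS1, -1.37 (SE 0.17, adjusted p 0.000383), OIP5-AS1 (-1.25), SUCLG2-AS1 (-1.02) and WDFY3-AS2 (-0.94). The first 3 of these kept an adjusted p below 0.05 without the length and GC trends, and WDFY3-AS2 did not (-0.33, adjusted p 0.145). PAX8-AS1, partner of a thyroid and kidney transcription factor and among the 5 most abundant, also differed between phases (1.19, adjusted p 0.00055). It had 43.0 and 37.1 FPKM without IP and 35.0 and 32.3 FPKM in the interphase IP, against 27.4 and 25.3 FPKM without IP and 55.5 and 48.6 FPKM in the mitotic IP. Its interphase decrease of -0.24 did not pass the test (adjusted p 0.0868), and with length and GC trends removed it was -1.13 (adjusted p 5.02e-05). SVIL-AS1, the fifth most abundant, had 19.0 and 19.2 FPKM without IP and 41.7 and 44.0 FPKM in the IP in interphase, and 23.4 and 20.5 FPKM and 48.9 and 39.8 FPKM in mitosis. Its difference between phases was -0.15 (adjusted p 0.518).

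Without IP, antisense genes were lower rather than higher in mitosis: 93 (31.1%) were lower and 23 (7.69%) higher than in interphase, against 25.5% and 26.2% of all genes. Their median log2 fold change was -0.19, against 0.00 over all genes. Of the 138 with a mean of at least 1 FPKM, 52 were lower and 15 higher, against 26.4% and 30.3% of all genes of that level. Higher genes were 19.8% of the calls, 30.2% after quantile normalisation (32 higher, 74 lower) and 39.5% with length and GC trends removed (45 higher, 69 lower). After quantile normalisation 24.7% were lower and 10.7% higher, against 25.1% and 25.9% of all genes. Removal of the trends gave 23.5% and 15.3%, against 24.8% and 26.9%. The share of lower genes was thus near that of all genes in those settings, and after median centring it was above it (39.8% against 30.7%). Leaving out the first mitotic library without IP reduced the higher calls to 15. The same mitotic libraries without IP also enter the effect of the IP in mitosis and the difference between phases. The counts of these comparisons are therefore not separate findings. In the comparisons without those libraries, 79 genes were higher and 65 lower (interphase IP), and 64 and 65 (mitosis against interphase in the IP). The part of those libraries was not tested. In bulk RNA, fewer cells with a transcript and less of it per cell cannot be told apart. By annotation class, 61 of 199 antisense, 19 of 44 lincRNA and 8 of 36 processed-transcript genes were lower, and 18, 0 and 2 were higher. The classes were not tested against each other. Genes named LINC and a number were lower in 42 and higher in 19 of 126, whereas genes with names ending in -IT and a number, transcripts within introns, were higher in 17 and lower in 1 of 23. With length and GC trends removed, the LINC counts were 25 lower and 25 higher of 110, and the -IT counts 12 higher and 1 lower of 15.

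RPARP-AS1 (chromosome 10, 102449817 to 102461106, + strand) had the largest decrease in mitosis. It went from 11.4 and 12.02 FPKM in interphase to 2.11 and 2.17 FPKM in mitosis without IP, a 5.47-fold lower mean and a log2 fold change of -2.02 (SE 0.11, adjusted p 5.28e-06). In the IP it had 12.5 and 13.9 FPKM in interphase and 2.7 and 2.88 FPKM in mitosis. The same order of phases was therefore seen in both kinds of library, and the effect of the IP on it was called in neither phase. SBF2-AS1 (-1.73), URB1-AS1 (-1.19) and THAP7-AS1 (-1.10) were next. SBF2-AS1 fell from 7.98 and 7.88 to 1.43 and 1.97 FPKM while its sense gene SBF2, which encodes a pseudophosphatase of the myotubularin family, rose from 6.22 and 6.53 to 11.0 FPKM in both libraries. Their ratio fell by 2.43 on the log2 scale (SE 0.14, adjusted p 0.00042).

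C1RL-AS1 (chromosome 12, 7108052 to 7122501, + strand) had the largest increase, from 0.64 and 0.689 FPKM in interphase to 4.58 and 5.22 FPKM in mitosis without IP, with 1.22 and 0.783 FPKM and 11.0 and 10.6 FPKM in the IP. Its mean was 7.37-fold higher in mitosis without IP (log2 fold change 1.82, SE 0.14, adjusted p 2.58e-05). The sense gene C1RL, for a complement-like protease, fell from 7.49 and 6.22 to 2.3 and 2.66 FPKM, so that the antisense to sense ratio changed by 3.00 (SE 0.19, adjusted p 0.00042). PSMD6-AS2 rose from 0.175 and 0.208 to 2.97 and 2.62 FPKM (1.67), while PSMD6 stayed between 43.8 and 56.1 FPKM in the same 4 libraries. ASMTL-AS1 (1.56) and TRHDE-AS1 (0.85) followed. These 4 share their deposited interval with their sense gene.

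In the IP libraries, 64 antisense genes (21.4%) were higher and 65 (21.7%) lower in mitosis than in interphase, against 35.8% and 25.6% of all genes. The median log2 fold change was -0.02, and it was 0.04 over members with a mean of at least 1 FPKM. Centring the libraries moved the split to 46 higher and 87 lower, and moved the median of all genes by -0.11. The largest increases were C1RL-AS1 (2.57), PSMD6-AS2 (2.36), ASMTL-AS1 (1.98) and EMC3-AS1 (1.39), and the largest decreases RPARP-AS1 (-1.90), SBF2-AS1 (-1.70), FGD5-AS1 (-1.61) and SLC26A4-AS1 (-1.32). This comparison uses the same mitotic and interphase IP libraries as the effects of the IP above.

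Nuclear RNA surveillance, by the exosome and its cofactors, is known to degrade many antisense and promoter-derived transcripts. Of 25 genes listed for it, 24 were rows, and 11 (45.8%) were higher and 2 (8.33%) lower in mitosis without IP, against 26.2% and 25.5% of all genes. DIS3, a catalytic subunit of the exosome, rose by 1.21 (SE 0.13, adjusted p 0.000127). ZFC3H1 and SKIV2L2, cofactors that bring RNA to it, rose by 0.99 and 0.97. Subunits of the exosome core went both ways. EXOSC2, EXOSC6 and EXOSC8 rose by 0.47, 0.79 and 0.44, EXOSC4 and EXOSC5 fell by 0.90 and 0.92, and EXOSC1, EXOSC3, EXOSC7 and EXOSC9 were not called. These are RNA levels, and their part in the levels of antisense genes was not tested.

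**Figure D3:**
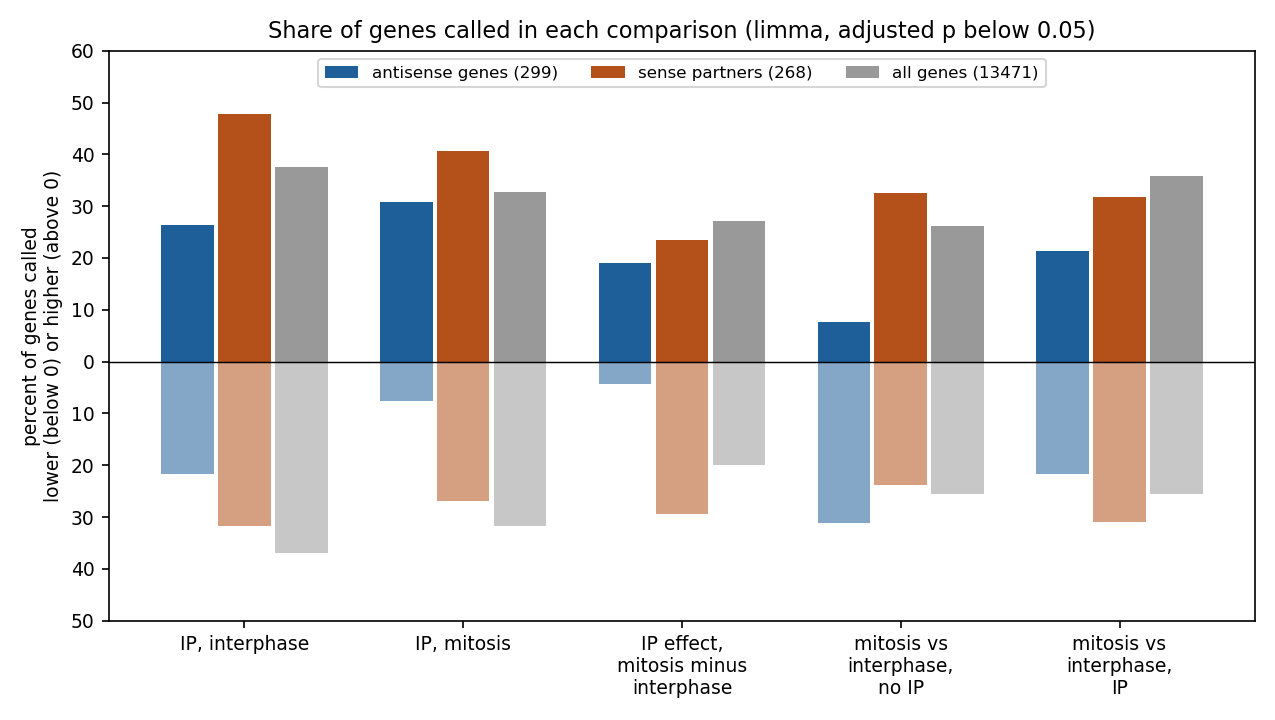
Percent of genes called higher (above 0) or lower (below 0) in each of the 5 comparisons (x axis) for antisense genes (299), their sense partners (268) and all genes (13471), by limma at an adjusted p below 0.05. Antisense genes have few lower calls in the mitotic IP (7.69%) and few higher calls in mitosis without IP (7.69%). Both comparisons use the same mitotic libraries without IP.

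Fold changes of antisense genes correlated at most weakly with those of their sense partners. In the interphase IP, both partners were higher in 43 of the 270 pairs and both lower in 27, the antisense gene was higher and the sense gene lower in 19, and the reverse held in 15. Only the sense gene was called in 111 pairs. The sense gene had the higher mean in most pairs, and changes of low genes are understated. The part of level in this count was not tested. The log2 fold changes of the partners correlated at Pearson's r of 0.17 over the 270 pairs in interphase, 0.27 over the 131 head-to-head pairs and 0.05 over the 132 overlapping ones. In mitosis r was 0.00 over all pairs, and for mitosis against interphase without IP it was -0.01. These are correlations across pairs measured in the same libraries, given as a description. In mitosis, the IP called both partners higher in 38 pairs and both lower in 5. Shares of other gene pairs were not worked out for these joint calls of partners. The counts therefore cannot be called particular to antisense pairs.

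The antisense to sense ratio was tested in each pair. In interphase it was higher in the IP in 74 pairs (27.4%) and lower in 111 (41.1%), with a median change of -0.22. Of the 2362 overlapping gene pairs and antisense pairs of the table, 56.4% were called, 27.9% higher and 28.5% lower. The antisense pairs are among these 2362. The genes of the other pairs were taken in alphabetical order, so the direction of their ratio has no meaning. In mitosis the antisense to sense ratio was higher in the IP in 83 pairs (30.7%) and lower in 65 (24.1%), with a median of 0.10. Of all those pairs, 50.3% were called, 25.7% higher and 24.6% lower. The change of the ratio with the IP differed between phases in the positive direction in 66 pairs (24.4%) and in the negative direction in 30 (11.1%). Of all those pairs, 31.9% were called, 17% positive and 14.9% negative. Without IP, the ratio was lower in mitosis in 92 pairs (34.1%) and higher in 31 (11.5%), with a median of -0.34. Of all those pairs, 39.9% were called, 23.2% lower and 16.6% higher. In the IP the ratio was higher in mitosis in 69 pairs (25.6%) and lower in 77 (28.5%). Of all those pairs, 54.6% were called, 25.4% higher and 29.2% lower. Head-to-head pairs held 52 of the 92 lower ratios without IP. In these 131 pairs, 47 antisense genes were lower and 6 higher in mitosis without IP, whereas 26 of their sense genes were lower and 51 higher. Among the 132 overlapping pairs the antisense counts were 36 lower and 13 higher, and the sense counts 36 and 37. These antisense counts depended on the processing. After quantile normalisation they were 35 lower and 12 higher (head-to-head) and 30 and 15 (overlapping). With length and GC trends removed they were 35 and 18 (head-to-head) and 24 and 23 (overlapping). The 2 arrangements were not tested against each other. Several of these counts rested on single libraries. Without the first mitotic library without IP, the mitotic IP had 54 higher ratios, the difference between phases 37 positive and 16 negative ones, and mitosis without IP 20 higher and 51 lower ones. Without the second of these libraries, the difference had 39 and 16, and mitosis without IP 51 lower ratios. The difference had 40 and 15 ratios without the first interphase library without IP, 36 positive ones without the second and 43 without the first mitotic IP library, and mitosis without IP had 55 lower ratios without either interphase library (19 higher without the second).

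**Figure D4:**
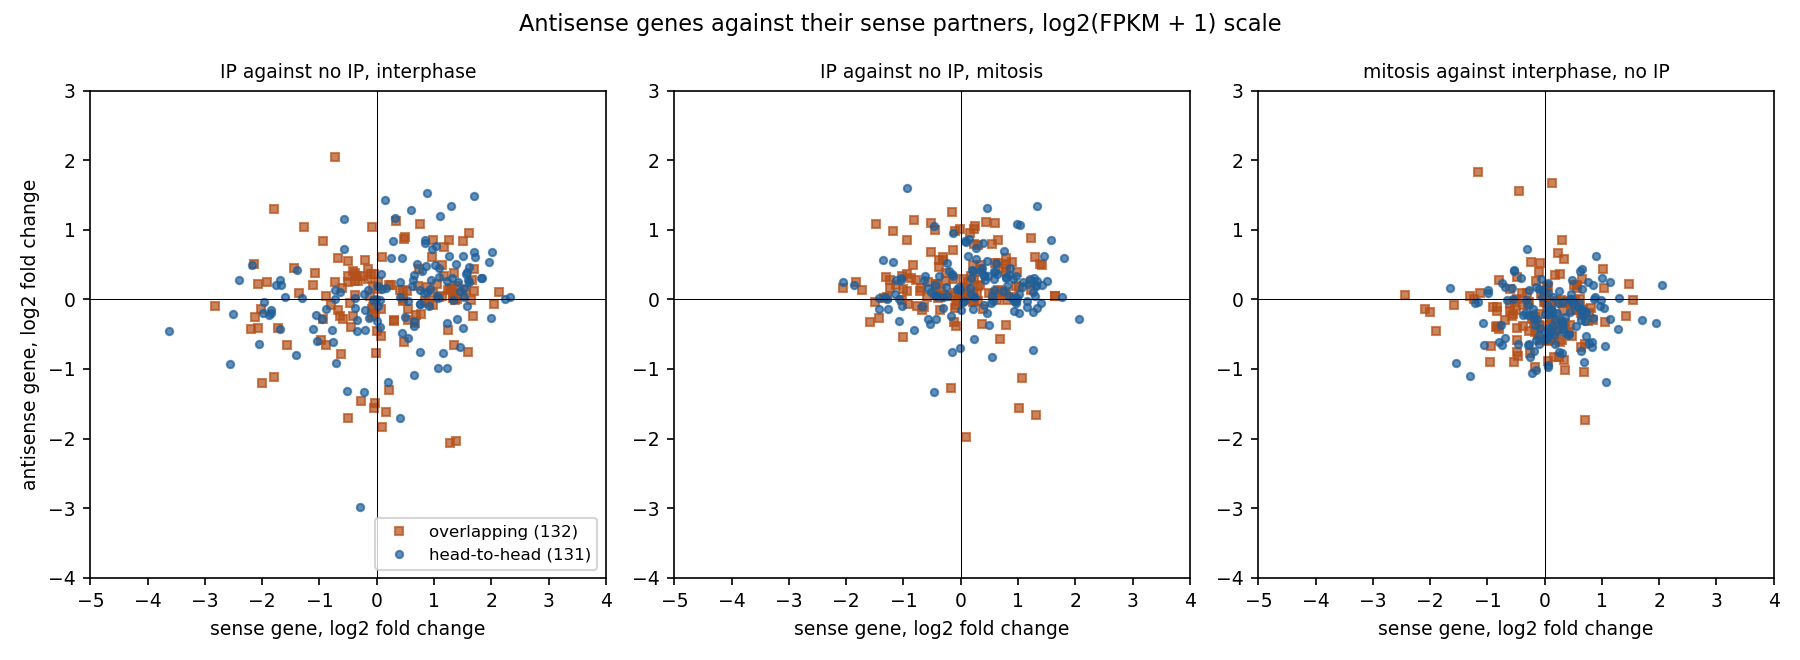
Log2 fold changes of sense genes (x axes) and of their antisense genes (y axes) for 131 head-to-head (blue circles) and 132 overlapping pairs (orange squares) in 3 comparisons. The points form no line in any panel (r of 0.17, 0.00 and -0.01 over 270 pairs), and in mitosis without IP more blue points lie below 0 than above it.

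The pairs with the largest ratio changes differed in which partner moved. For TMEM147-AS1 and TMEM147, whose product is a membrane protein of the endoplasmic reticulum, the ratio rose by 3.18 in the interphase IP (SE 0.17, adjusted p 4.79e-05). TMEM147 fell from 81.2 and 82.9 to 6.05 and 5.41 FPKM, and the antisense gene went from 1.44 and 1.34 to 1.01 and 0.526 FPKM. MSC-AS1 (3.09), OIP5-AS1 (2.77), NDUFB2-AS1 (2.74) and GAS6-AS2 (2.69) followed in interphase. For NDUFB2-AS1, at 0.139 to 0.372 FPKM in interphase, the ratio change rests on the sense gene, a subunit of mitochondrial complex I. The largest falls were those of SERTAD4-AS1 (-3.42), TOPORS-AS1 (-3.35), FOXC2-AS1 (-2.69), FOXN3-AS1 (-2.34) and LPP-AS2 (-2.29). SERTAD4-AS1 fell in the interphase IP from 12.8 and 17.0 to 3.01 and 2.64 FPKM, and SERTAD4 rose from 6.58 and 5.66 to 17.1 and 17.9 FPKM. In mitosis the same partners went from 12.4 and 9.86 to 3.39 and 2.28 FPKM and from 6.72 and 4.88 to 16.8 and 14.9 FPKM. Both moved apart in each phase although they share a deposited interval. TOPORS, for a ubiquitin and SUMO ligase, likewise rose in the IP, from 7.97 and 6.77 to 18.8 and 19.98 FPKM in interphase, as TOPORS-AS1 fell.

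In mitosis the largest rises of the ratio were those of NR2F1-AS1 (2.56), NFYC-AS1 (2.55), TMEM147-AS1 (2.31), KTN1-AS1 (2.21) and SVIL-AS1 (2.16). NR2F1-AS1 rose from 14.4 and 14.7 to 32.4 and 31.4 FPKM, and NR2F1, a nuclear receptor gene, fell from 22.3 and 23.8 to 7.55 and 7.7 FPKM. The largest falls were those of SERTAD4-AS1 (-2.99), TOPORS-AS1 (-2.58), TNKS2-AS1 (-2.34), KANSL1-AS1 (-2.20) and LRRC75A-AS1 (-2.06). The pairs of 1 sense gene differed as well. HIF1A-AS2 was higher in the interphase IP (from 0.302 and 0.0983 to 1.58 and 1.5 FPKM, log2 fold change 1.08), and HIF1A-AS1 had 0.592 and 0.588 FPKM without IP and 0.639 and 0.842 FPKM in the IP (0.13, adjusted p 0.499). Both share the interval of HIF1A, the gene of the hypoxia factor, at 83.0 to 149 FPKM in interphase. PAXIP1-AS1 and PAXIP1-AS2 were both lower in mitosis without IP (-0.76 and -0.58), where PAXIP1 was higher (0.31).

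Partners were called in opposite directions by the IP in both phases in 10 pairs, chosen after their values were seen. In NFYC-AS1, NR2F1-AS1 and CAPN10-AS1 among these, the antisense gene was the higher one, and in SERTAD4-AS1, TOPORS-AS1, ZBED5-AS1 and ZNF667-AS1 the lower one. No share of other gene pairs was worked out for this count of 10, which therefore cannot be called particular to antisense pairs. Of the 10, 4 were head-to-head (CAPN10-AS1, NFYC-AS1, ZBED5-AS1 and ZNF667-AS1). Partners of a head-to-head pair start close together on opposite strands, so the sequence around the antisense start is shown for 3 of them: RefSeq windows (GRCh38.p14) of 300 bases, from 250 before to 50 after the antisense start, on the strand of the antisense gene, 5′ to 3′. Capitals mark matches on either strand to 4 motifs: the CCAAT box (CCAAT), the GC box (GGGCGG), an ETS motif (CCGGAAG) and the TATA box (TATAAA). The windows are chr2:240586267-240586566 (- strand) for CAPN10-AS1 (CAPN10-DT in RefSeq), chr11:10857967-10858266 (+ strand) for ZBED5-AS1 and chr19:56477874-56478173 (+ strand) for ZNF667-AS1.
CAPN10-AS1: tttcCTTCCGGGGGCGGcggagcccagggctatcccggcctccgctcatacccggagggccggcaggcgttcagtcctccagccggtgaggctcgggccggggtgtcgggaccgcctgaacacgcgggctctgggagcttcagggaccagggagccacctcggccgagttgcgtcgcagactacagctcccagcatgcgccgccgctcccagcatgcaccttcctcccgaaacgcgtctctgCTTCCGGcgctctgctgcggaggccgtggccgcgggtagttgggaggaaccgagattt
ZBED5-AS1: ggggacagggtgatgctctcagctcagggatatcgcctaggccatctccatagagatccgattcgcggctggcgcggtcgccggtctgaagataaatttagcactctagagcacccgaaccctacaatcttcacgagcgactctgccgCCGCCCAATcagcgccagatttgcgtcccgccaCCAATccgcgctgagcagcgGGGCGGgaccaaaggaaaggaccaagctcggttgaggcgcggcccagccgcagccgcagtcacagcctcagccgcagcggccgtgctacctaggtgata
ZNF667-AS1: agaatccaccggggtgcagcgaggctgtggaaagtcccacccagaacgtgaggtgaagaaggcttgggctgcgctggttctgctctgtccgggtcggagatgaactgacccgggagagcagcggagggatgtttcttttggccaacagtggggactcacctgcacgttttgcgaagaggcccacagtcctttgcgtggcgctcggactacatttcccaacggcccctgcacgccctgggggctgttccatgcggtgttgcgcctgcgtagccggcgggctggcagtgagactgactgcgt

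The CAPN10-AS1 window held the ETS motif on the opposite strand near its beginning and again just before the antisense start. A GC box directly follows the first of these. The ZBED5-AS1 window held a pair of CCAAT boxes and a pair of GC boxes, with one overlap between a GC box on the opposite strand and a CCAAT box. The ZNF667-AS1 window held none of the 4. A match is only a match of letters. A window was found for 237 of the 299 antisense genes (188 by symbol, 49 by synonym) and 10384 genes of the table. The CCAAT box was in 32.5% of the antisense windows and 36.7% of all windows, the GC box in 59.1% and 67.7%, the ETS motif in 15.6% and 19%, and the TATA box in 6.75% and 6.15%. Of 195 pairs with both windows, 70 had windows that overlapped on opposite strands. The window of ZBED5-AS1 shared 263 bases with that of ZBED5, the window of CAPN10-AS1 shared 83 with that of CAPN10, and the window of ZNF667-AS1 shared 0 with that of ZNF667.

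CAPN10, which encodes the protease calpain 10, had 8.21 and 6.8 FPKM without IP and 2.05 and 1.29 FPKM in the interphase IP, a log2 fold change of -1.68, while CAPN10-AS1 went from 0.602 and 0.607 to 0.986 and 0.906 FPKM (0.28, adjusted p 0.0434). In mitosis the values were -0.63 for CAPN10 and 0.34 for CAPN10-AS1 (adjusted p 0.0216). ZBED5, a zinc finger gene derived from a transposase, rose in the interphase IP from 12.7 and 11.2 to 27.8 and 24.5 FPKM, and ZBED5-AS1 fell from 4.9 and 6.6 to 1.92 and 2.9 FPKM. In mitosis ZBED5 rose from 12.1 and 12.8 to 28.9 and 33.3 FPKM, and ZBED5-AS1 fell from 2.53 and 2.46 to 1.17 and 1.08 FPKM. The ratio fell by 2.06 (adjusted p 0.000763) and 1.98 (adjusted p 0.0014). ZNF667, a gene of a zinc finger protein, rose in the interphase IP from 1.9 and 2.12 to 5.87 and 6.16 FPKM. ZNF667-AS1 fell from 4.24 and 3.99 to 1.33 and 1.85 FPKM, and from 2.59 and 1.97 to 0.951 and 0.725 FPKM in mitosis. The partners of these 3 pairs have separate intervals in the file. No library overlapped between IP and no IP for either partner of the ZBED5 pair in either phase.

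The antisense genes that were higher and lower in the IP also differed in composition, as the genes of the whole table did. The 79 genes higher in the interphase IP had a median transcript length of 2636 nt and a median GC content of 43.4%, and the 65 lower ones 1563 nt and 54.0%. In mitosis the corresponding medians were 2539 nt and 45.1% for the 92 higher genes and 1521 nt and 49.3% for the 23 lower ones. Across 294 antisense genes, the log2 fold change of the IP had a Spearman's rho with GC content of -0.47 in interphase and -0.23 in mitosis, against -0.71 and -0.56 over 13143 genes. With transcript length rho was 0.31 and 0.25, against 0.53 and 0.28. All these points share libraries, and FPKM is itself scaled by length. When these trends were removed from each library, the interphase IP had 137 higher (46.6%) and 60 lower (20.4%) antisense genes, against 26.2% and 34% of all genes. The mitotic IP had 117 (39.8%) and 41 (13.9%), against 31.9% and 29.8%. The medians of the antisense genes were 0.27 and 0.24. Over all genes the medians were then -0.06 and 0.03.

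**Figure D5:**
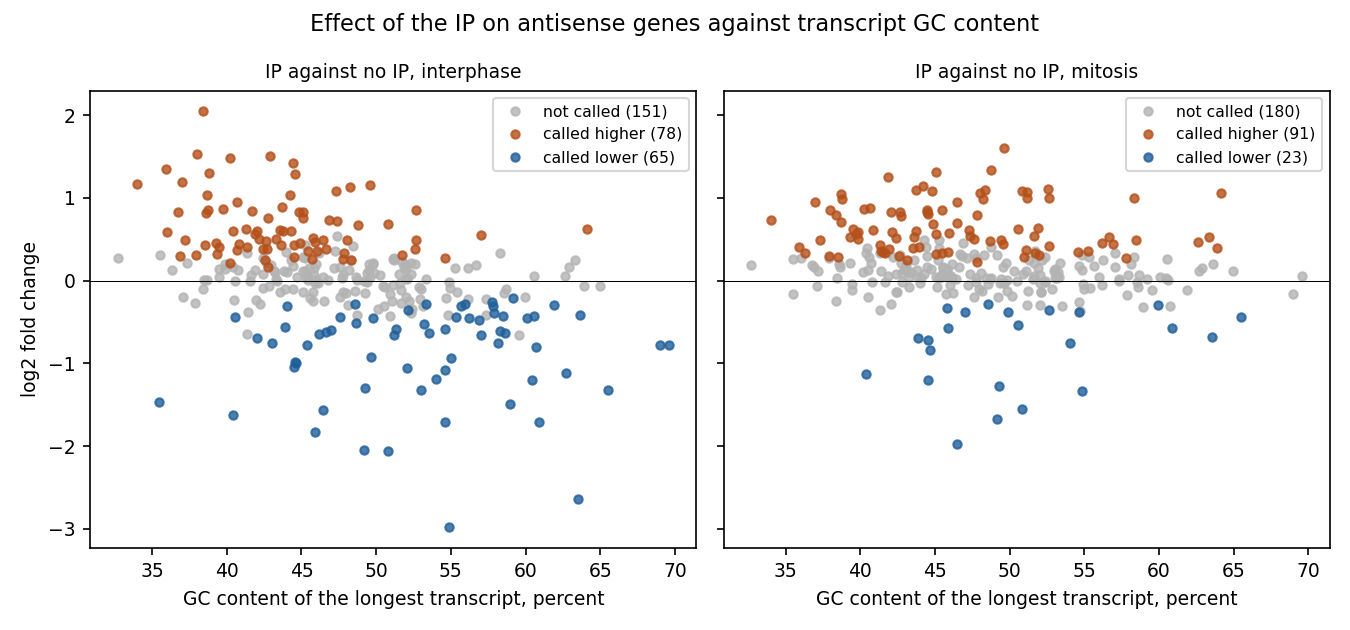
GC percentage of each gene's longest transcript (x axis) and log2 fold change of IP against no IP (y axis) for 294 antisense genes in interphase and mitosis, coloured by limma call. In interphase the higher genes lie at a lower GC content (median 43.4%) than the lower ones (54.0%), and in mitosis the same order holds with medians of 45.1% and 49.3%.

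Among antisense RNAs listed for their place in the literature, PSMA3-AS1 and MCM3AP-AS1 rose in the IP of each phase. PSMA3-AS1 rose by 1.04 in interphase and 0.71 in mitosis, and the latter lost its call with length and GC trends removed (0.19, adjusted p 0.32). MCM3AP-AS1 rose by 1.04 and 1.14. HIF1A-AS2 rose by 1.08 and 0.61. GABPB1-AS1 rose by 0.60 (adjusted p 0.0034) and 0.83, and its interphase value turned to -0.70 (adjusted p 0.00179) without those trends, its longest annotated transcript being 16182 nt. The mitotic rise lost its call in the same way (0.27, adjusted p 0.113). TTN-AS1 (0.43 and 0.83) and ZEB1-AS1 (0.44 and 0.53), antisense to the titin gene and to a regulator of epithelial-mesenchymal transition, were called in both phases. In interphase both lost the call in some fits that left out 1 library, TTN-AS1 without either interphase library without IP (adjusted p 0.0969 and 0.0594) or the first interphase IP library (0.0937), and ZEB1-AS1 without the first library without IP (0.0740) or the second IP library (0.113). With length and GC trends removed, ZEB1-AS1 was called in neither phase (0.18 and 0.25, adjusted p 0.255 and 0.113), and TTN-AS1 in interphase turned to -0.19 (adjusted p 0.281). CDKN2B-AS1, also called ANRIL, stayed at 0.197 to 0.575 FPKM in all libraries, with log2 fold changes of -0.08 and -0.14 that did not pass the test (adjusted p 0.435 and 0.218). With length and GC trends removed it was called lower in both phases (-0.77 and -0.53, adjusted p 0.0002 and 0.00162). These changes are larger than the range of its own log2 values. The setting subtracts trends fitted over all genes, so for a gene this low they cannot be read as its own decrease. NUTM2A-AS1 (-0.14 and -0.08) was called in neither phase. PCBP1-AS1 (0.34 and 0.04, adjusted p 0.0516 and 0.829) was not called with FPKM as deposited. In interphase it was called higher after median centring (0.46, adjusted p 0.0129), after quantile normalisation (0.43, adjusted p 0.0120) and without the second interphase library of either kind (0.50 in both fits, adjusted p 0.0163 without the no-IP library and 0.0174 without the IP library). LOXL1-AS1, partner of the elastin cross-linking gene LOXL1, had 12.8 and 11.2 FPKM without IP and 16.9 and 18.2 FPKM in the interphase IP. In mitosis it had 9.22 and 8.24 FPKM without IP and 7.21 and 6.31 FPKM in the IP. Its log2 fold changes were 0.51 (adjusted p 0.00368) and -0.33 (adjusted p 0.037), and the mitotic call was lost after median centring (adjusted p 0.11), after quantile normalisation (0.0855) and without either mitotic library without IP or the second mitotic IP library (adjusted p 0.0507 to 0.189).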

How the data were processed

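RNA of hTERT-RPE1 cells was measured in 8 libraries, 2 in each of 4 groups. The authors deposited a gene table on hg38 (GRCh38) with FPKM per library and ratio columns (quotients of same-numbered FPKM columns), per the file headers. The ratio columns were not used for results. TopHat and StringTie are named in the submitters' processing notes, with no role, and libraries were directional, per the labels' protocols. Columns not mapped to a sample numbered 0. A second table, of features without gene names on another build, was not used here.

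Values were analysed as log2(FPKM + 1) with limma 3.58.1 (lmFit, eBayes with trend) in R 4.3.3, with 1 coefficient per group, all 8 libraries (4 residual degrees of freedom), no replicate block, and Benjamini-Hochberg adjustment over all 13471 genes. A call is an adjusted p below 0.05. The difference between phases is the interaction contrast. The antisense to sense ratio was fitted the same way over 2362 gene pairs. Nothing says that libraries came from separate cultures, so p-values measure only the spread between these libraries, which may be technical. The fit was tested on simulated data.

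The members and lists were chosen with earlier results of these data known. Genes named are the 6 largest calls in each direction for each effect of the IP, the 4 largest for the other comparisons, the 5 most abundant, the 5 largest ratio changes in each direction, and a fixed list. Others are said to be chosen by their values. Coordinates, lengths and GC content come from GENCODE release 29 and promoters from RefSeq. Alternatives were a pseudocount of 0.1, a mean of at least 1 FPKM, quantile normalisation, median centring, removal of length and GC trends (splines with 5 degrees of freedom), a replicate block, leaving out each library, and, for pairs, separate intervals or both genes at 1 FPKM or more. The length and GC trends were fitted over all annotated genes of a library. Values of genes near or below 1 FPKM in that setting, with their calls and signs, can therefore reflect the subtracted trend.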

Additional observations from a re-analysis of the deposited data

Results flagged for a closer look

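For 21 of the antisense genes named in the report, the effect of the IP differed between mitosis and interphase by the test of the difference itself (limma interaction, adjusted p below 0.05). By this test 70 of the 299 antisense genes and 47.1% of all genes were called. Some of the 21 were named because their difference was among the largest calls, so the count is partly fixed by that choice. Values are mitosis minus interphase on the log2 scale. They were positive for AGAP2-AS1 (1.95), FOXC2-AS1 (1.64), PXN-AS1 (1.44), PRR34-AS1 (1.35), URB1-AS1 (1.27), ZSCAN16-AS1 (1.26), PAX8-AS1 (1.19), NCBP2-AS2 (1.13), THAP7-AS1 (0.83), C1RL-AS1 (0.75), EMC3-AS1 (0.73), PSMD6-AS2 (0.69), RASSF8-AS1 (0.66) and NFYC-AS1 (0.45). They were negative for FGD5-AS1 (-1.37), OIP5-AS1 (-1.25), SUCLG2-AS1 (-1.02), WDFY3-AS2 (-0.94), LOXL1-AS1 (-0.84), NNT-AS1 (-0.67) and SLC26A4-AS1 (-0.65). PXN-AS1 and WDFY3-AS2 lost this call with length and GC trends removed (adjusted p 0.125 and 0.145).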

How the results depend on the processing

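Counts are given as higher and lower. With a mean of at least 1 FPKM, which leaves 138 genes to count, they were 50 and 36 (interphase IP), 59 higher (mitotic IP), 15 and 52 (mitosis against interphase, no IP) and 39 and 34 (in the IP, median 0.0428). With length and GC trends removed, 137 genes were higher in the interphase IP, 41 lower in the mitotic IP, 52 had a negative difference between phases (23 after quantile normalisation; median -0.0470) and 45 were higher in mitosis without IP. Ratios with a pseudocount of 0.1 were higher in 68 pairs and lower in 70 (interphase IP), lower in 34 (mitotic IP), and 40 and 15 for the difference. Over the 101 pairs with separate intervals they were 32 and 42, 32 and 29, 35 and 16 (difference), 13 and 49 (mitosis, no IP) and 29 and 37 (mitosis, IP). With both genes at 1 FPKM or more they were, in that order, 36 and 50, 41 and 28, 34 and 14, 9 and 46, and 23 and 33. Fewer features tested can lower these counts, and otherwise the cause was not tested.

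Leaving out each library gave, for the interphase IP, 67 to 81 and 52 to 69 genes, for the mitotic IP 73 to 93 and 15 to 24, then 40 to 60 and 10 to 15 for the difference, 15 to 26 and 71 to 95 in mitosis without IP, and 47 to 61 and 44 to 62 in the IP. For ratios the ranges were 55 to 77 and 90 to 110, 54 to 85 and 44 to 66, 36 to 63 and 15 to 24, 19 to 33 and 51 to 90, and 48 to 67 and 57 to 76. The report names the libraries behind the larger moves. Without the first mitotic library without IP, 15 genes were lower in the mitotic IP and 15 higher in mitosis without IP.

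Signs turned for NCBP2-AS2 (0.27), GABPB1-AS1 (-0.70) and TTN-AS1 (-0.19) in interphase and FGD5-AS1 (-0.22) and PCBP1-AS1 (-0.0910) in mitosis with length and GC trends removed, for FGD5-AS1 in mitosis after quantile normalisation (-0.0639), and for CDKN2B-AS1 in interphase (0.0409) and NUTM2A-AS1 in mitosis (0.0135) after median centring. Leaving out each library, CDKN2B-AS1 in interphase ran from -0.176 to 0.00809 (without the first IP library), and NUTM2A-AS1 from -0.375 to 0.0930 in interphase and -0.410 to 0.247 in mitosis, positive without the first library without IP or the second IP library of that phase. Under the alternatives, 985 values of named genes kept their direction and side of the threshold, 21 lost the call, 8 gained one and 13 turned, and 261 values of named pairs kept both.

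Same-numbered libraries share only a number in the labels. Their deviations from the group means correlated at 0.088 to 0.528 across all genes and at -0.04 to 0.19 across antisense genes. With the replicate block the counts were 83 and 75 (interphase IP), 103 and 24 (mitotic IP), 67 and 17 for the difference, 24 and 104 in mitosis without IP and 65 and 66 in the IP, and PAX8-AS1 in interphase became a call (-0.24, adjusted p 0.0313). Depth is unknown, so no counting error can be given for values under 1 FPKM.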
